A study of Homo sapiens with 20 samples.

Results

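The 38 genes described here encode the enzymes, transporters and regulators of glycolysis together with genes of the response to low oxygen, chosen by symbol from a fixed list of names. Each symbol matched 1 of the 58288 rows of the count files, and all 38 were among the 16478 genes kept by the filter on low counts, EGLN3 and CA9 through their counts in DOHH2 alone. They comprise 15 glycolytic enzymes, 2 enzymes that set the level of fructose 2,6-bisphosphate, 4 genes that decide the fate of pyruvate, 4 transporters, 3 genes of the oxygen-sensing machinery itself and 10 other targets of hypoxia. The data are RNA-seq counts of polyadenylated RNA from 20 libraries of the human diffuse large B-cell lymphoma lines DOHH2 and U2932, each treated with a compound labelled TK or with its control DMSO for 8 or 18 h. What TK is and at what dose it was used is not stated in the labels.

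The 8 groups were DOHH2 with DMSO for 8 h (n = 3) and 18 h (n = 2), DOHH2 with TK for 8 h (n = 3) and 18 h (n = 3), U2932 with DMSO for 8 h (n = 3) and 18 h (n = 1), and U2932 with TK for 8 h (n = 2) and 18 h (n = 3). Each condition rests on 1 established line, with no genotype or other treatment given for any group. Whether replicates came from separate cultures is not stated, and p-values here therefore describe the spread between libraries, which may be technical. In such bulk libraries, fewer cells of a type and less RNA per cell cannot be told apart.

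Between 30363255 and 52275430 counts fell in genes per library, and the 38 genes took 1.81 to 2.58% of them. Library DOHH2 TK 18 h replicate 1 stood apart, with 56.6% of its reads not uniquely aligned against 20.7 to 34.3% in the others, and the mitochondrial share of counts was 3.29% in replicate 1 of DOHH2 TK 8 h against 5.06 to 8.08% elsewhere. B-cell markers summed to 806 to 3010 CPM (TMM-scaled counts relative to library size) in all libraries, those of T cells to 3.05 to 10.9 CPM (nearly all CD247, with CD3D at 0 in 19 of 20 libraries), and those of monocytes to 0.0651 to 2.08 CPM. Fibroblast markers reached 34.7 CPM, with COL1A1 at 4.96 to 29.2 CPM in DOHH2 and 0.273 to 1.73 CPM in U2932, and epithelial markers 32.6 CPM, with EPCAM at 0 to 0.427 and 21.0 to 32.2 CPM. The part of these marker differences in the differences between the lines was not tested. In the common division of this lymphoma, DOHH2 counts as germinal centre B-cell-like and U2932 as activated B-cell-like. Levels of the germinal centre repressor BCL6 (0 to 0.358 CPM in DOHH2, 330 to 409 CPM in U2932) and of the activated-type factor IRF4 (674 to 962 and 326 to 420 CPM) went the other way, and the lines are named here as labelled. Whether the labels of the lines were exchanged was not tested, and the direction of every difference between the lines rests on them.

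Glycolysis breaks glucose down to pyruvate, and lymphoma cells often turn much of that pyruvate into lactate and export it. When oxygen is short, prolyl hydroxylases of the EGLN family stop marking the factor HIF1A for destruction, and HIF1A then binds short motifs near the promoters of glycolytic enzymes, glucose and lactate transporters and genes such as BNIP3, KDM3A and ADM. Several of its targets, among them EGLN3 and the histone demethylase KDM3A, are widely used as readouts of that response.

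The motif that hypoxia-inducible factors recognise has the core letters ACGTG or GCGTG. Both were searched on both strands in the RefSeq promoter windows of build GRCh38.p14, each 300 bases long, from 250 bases before to 50 after a gene's start. Overlapping matches were counted separately, so that CACGTG counts as 2. Of the 38 genes, 33 had an entry, and SLC2A3, SLC16A1, BNIP3L, NDRG1 and VEGFA did not. At least 1 match stood in 42 of the 61 windows of the listed genes (68.9%), against 17012 of 35116 windows of all genes (48.4%). By gene, 31 of 33 listed genes (93.9%) had a match in at least 1 window, against 14318 of 27305 (52.4%). The listed genes had more windows per gene than all genes, which raises their share by gene. All genes here include those not expressed in these lines, and the list holds known targets of hypoxia. The difference in shares was not tested. The windows of 4 genes are printed 5′ to 3′ with the matches in capitals, and were chosen after their values were seen. KDM3A and PFKFB4 rose over time with DMSO in DOHH2. PDK1 and BNIP3 had the next smallest p there and did not pass.
KDM3A: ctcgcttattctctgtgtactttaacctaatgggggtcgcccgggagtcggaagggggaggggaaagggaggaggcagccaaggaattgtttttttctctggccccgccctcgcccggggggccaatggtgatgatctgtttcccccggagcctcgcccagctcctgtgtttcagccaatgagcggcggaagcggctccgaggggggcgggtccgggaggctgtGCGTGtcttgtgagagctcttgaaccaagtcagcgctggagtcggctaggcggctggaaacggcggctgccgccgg
PFKFB4: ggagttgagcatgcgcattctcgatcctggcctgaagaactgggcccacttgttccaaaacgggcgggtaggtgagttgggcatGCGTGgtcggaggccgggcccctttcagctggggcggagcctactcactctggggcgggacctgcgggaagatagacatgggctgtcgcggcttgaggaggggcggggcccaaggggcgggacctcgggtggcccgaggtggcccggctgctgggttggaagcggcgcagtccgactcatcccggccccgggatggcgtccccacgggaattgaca
PDK1: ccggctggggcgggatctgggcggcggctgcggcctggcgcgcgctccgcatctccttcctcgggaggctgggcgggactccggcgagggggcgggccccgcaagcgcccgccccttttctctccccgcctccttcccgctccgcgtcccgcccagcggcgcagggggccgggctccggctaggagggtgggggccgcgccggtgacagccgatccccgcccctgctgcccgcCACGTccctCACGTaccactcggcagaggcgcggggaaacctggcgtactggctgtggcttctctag
BNIP3: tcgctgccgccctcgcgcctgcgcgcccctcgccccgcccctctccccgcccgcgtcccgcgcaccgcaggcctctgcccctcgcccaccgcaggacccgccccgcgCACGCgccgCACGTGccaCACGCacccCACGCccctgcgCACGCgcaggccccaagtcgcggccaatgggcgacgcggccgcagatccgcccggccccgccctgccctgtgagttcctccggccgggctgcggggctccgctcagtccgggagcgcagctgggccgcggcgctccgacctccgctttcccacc
These windows lie at chr2:86441121-86441420 on the plus strand (KDM3A), chr3:48556754-48557053 on the minus strand (PFKFB4), chr2:172555840-172556139 on the plus strand (PDK1) and chr10:131981874-131982173 on the minus strand (BNIP3). The KDM3A and PFKFB4 windows hold 1 match each, the PDK1 window 2 and the BNIP3 window 6. A second PDK1 window, at chr2:172555123-172555422, holds none, and a second KDM3A window overlaps the one printed and holds the same match. A match describes letters only and shows no binding.

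The change over time without the compound was taken first. In DOHH2 with DMSO, 3 of the 38 genes were higher at 18 h than at 8 h and none was lower at an adjusted p under 0.05 (edgeR, quasi-likelihood F-test, Benjamini-Hochberg over all genes tested), against 0.631% of all genes tested. These were BNIP3L and KDM3A among the hypoxia targets and PFKFB4 among the regulators. Over the whole list 28 of 38 log2 changes were positive, with a median of 0.21 against 0 over all genes tested.

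BNIP3L, a mitophagy receptor of the outer mitochondrial membrane, was at 13.3, 8.4 and 9.34 CPM in the DMSO 8 h libraries of DOHH2 and at 26.8 and 18.1 CPM in those of 18 h. Both late libraries lay above all early ones, a rise of 1.12 on the log2 scale (SE 0.19, adjusted p = 0.00893 by edgeR). With TK it went from 13.2, 11.4 and 13 CPM to 21.1, 23.9 and 24.5 CPM, a rise of 0.89 (SE 0.17, adjusted p = 0.0185 by edgeR), again with no overlap. BNIP3L was thus higher late in culture with and without the compound.

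KDM3A, a demethylase of histone H3, rose by the same amount under both treatments. Its DMSO levels in DOHH2 were 33.8, 30.5 and 29.3 CPM at 8 h and 48.8 and 51.3 CPM at 18 h, a rise of 0.68 (SE 0.12, adjusted p = 0.00981 by edgeR). Its TK levels were 33.2, 31.6 and 39.8 CPM at 8 h and 57.3, 53.8 and 56.9 CPM at 18 h, a rise of 0.68 (SE 0.11, adjusted p = 0.00426 by edgeR). No early library reached a late one under either treatment, and the call with TK held without each of the 6 libraries in turn (0.62 to 0.79).

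PFKFB4, a kinase and phosphatase that controls fructose 2,6-bisphosphate, was at 10.7, 6.28 and 7.02 CPM with DMSO at 8 h and at 26.1 and 16.8 CPM at 18 h, the largest rise of the list (1.43, SE 0.29, adjusted p = 0.0265 by edgeR). With TK it went from 11.2, 9.48 and 10.5 CPM to 25.2, 11.1 and 11.8 CPM, where the groups overlapped and the change did not pass (0.62, SE 0.27, adjusted p = 0.224 by edgeR). The 25.2 CPM belong to the library with 56.6% of reads not uniquely aligned. Its part in this value was not tested.

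The DMSO rises rest on few libraries. Without DMSO 18 h replicate 1, DMSO 18 h replicate 3 or DMSO 8 h replicate 2, none of the 38 genes passed, and PFKFB4 was also lost without DMSO 8 h replicate 3, while the sizes stayed between 0.81 and 1.37 for BNIP3L, 0.64 and 0.74 for KDM3A and 1.08 and 1.71 for PFKFB4.

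PDK1 and BNIP3 had the next smallest p with DMSO and did not pass. PDK1, a kinase that inactivates pyruvate dehydrogenase, was at 27.8, 24.4 and 27.1 CPM with DMSO at 8 h and at 46.7 and 42 CPM at 18 h (0.75, SE 0.18, adjusted p = 0.0711 by edgeR). With TK its levels were 22.8, 27.1 and 38.5 CPM at 8 h and 32.3, 42.3 and 44 CPM at 18 h (0.42, adjusted p = 0.176 by edgeR), so that the DMSO groups were separate and the TK groups overlapped. BNIP3, the paralog of BNIP3L, was at 39.5, 34.3 and 32.8 CPM early and 52.4 and 42.4 CPM late with DMSO (0.42, SE 0.13, adjusted p = 0.213 by edgeR). It was at 40.4, 34.8 and 36.5 CPM early and 39.6, 34.2 and 37.5 CPM late with TK, where the 2 sets of libraries covered nearly the same range.

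With TK, 3 of 38 genes differed between 18 h and 8 h in DOHH2, against 1.57% of all genes tested. Beside the rises of BNIP3L and KDM3A, the glycolytic enzyme ENO1, which makes phosphoenolpyruvate, fell by 0.48 (SE 0.12, adjusted p = 0.0497 by edgeR). Its levels were 4153, 3414 and 2964 CPM at 8 h and 2472, 2430 and 2627 CPM at 18 h. All late libraries lay below all early ones, but the call was lost in 5 of the 6 fits that left out 1 library, with changes from -0.59 to -0.35. The ENO1 call held without TK 8 h replicate 3. It was also lost under RLE scaling (-0.49), with a replicate block, and in the fit of DOHH2 alone, where no listed gene passed. The rise of BNIP3L with TK was lost in 3 of 6 such fits (without TK 18 h replicate 3 or TK 8 h replicate 1 or 2), with changes from 0.82 to 0.95. TK 8 h replicate 1 is the library whose mitochondrial share stood apart, and without it BNIP3L was at 0.93 and ENO1 at -0.35. ENO1 with DMSO went from 3384, 2778 and 3023 CPM to 2756 and 2695 CPM, and 11 of the 15 glycolytic enzymes had negative changes with TK against 6 of 15 with DMSO.

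**Figure D1:**
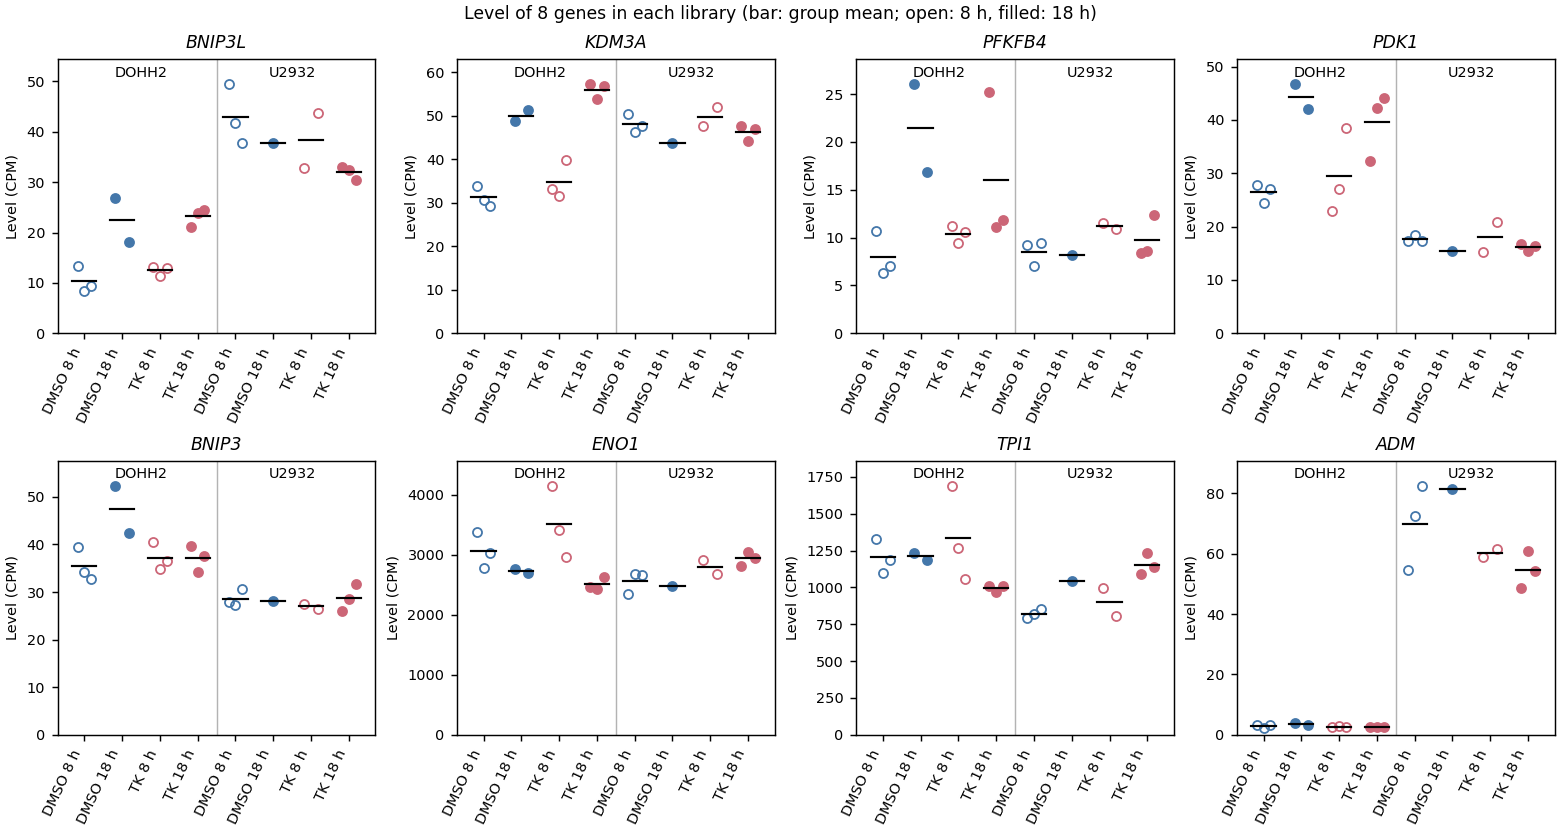
Level of 8 listed genes in each library in CPM (y axis) for the 8 groups (x axis), with open points at 8 h, filled points at 18 h, DMSO in blue, TK in red and bars at group means. BNIP3L and KDM3A are higher in the late than in the early DOHH2 libraries under both treatments, and ADM is near 3 CPM in DOHH2 and above 48 CPM in U2932.

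The DMSO and TK changes over time share no library and can be set side by side. Among the 37 genes with a mean of at least 1 CPM in DOHH2, 67.6% changed in the same direction in both, against 73.2% of 11783 genes of that level. The correlation across genes was 0.81 (Pearson) for the 37 genes and 0.58 for all. In U2932 the shares were 72.2% of 36 genes and 74.0% of 12289. These are descriptions across genes, which are not independent replicates and share the scaling of the libraries. The change with TK minus the change with DMSO passed for none of the 38 genes in DOHH2 by edgeR, against 0.0121% of all genes tested, with 2 at an unadjusted p under 0.05 (4.32% of all genes) and 0 by DESeq2. Its log2 values were negative for 32 of 38 genes, with a median of -0.21 against 0.01 over all genes. The 2 genes were BNIP3 (-0.42) and TPI1 (-0.43).

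**Figure D2:**
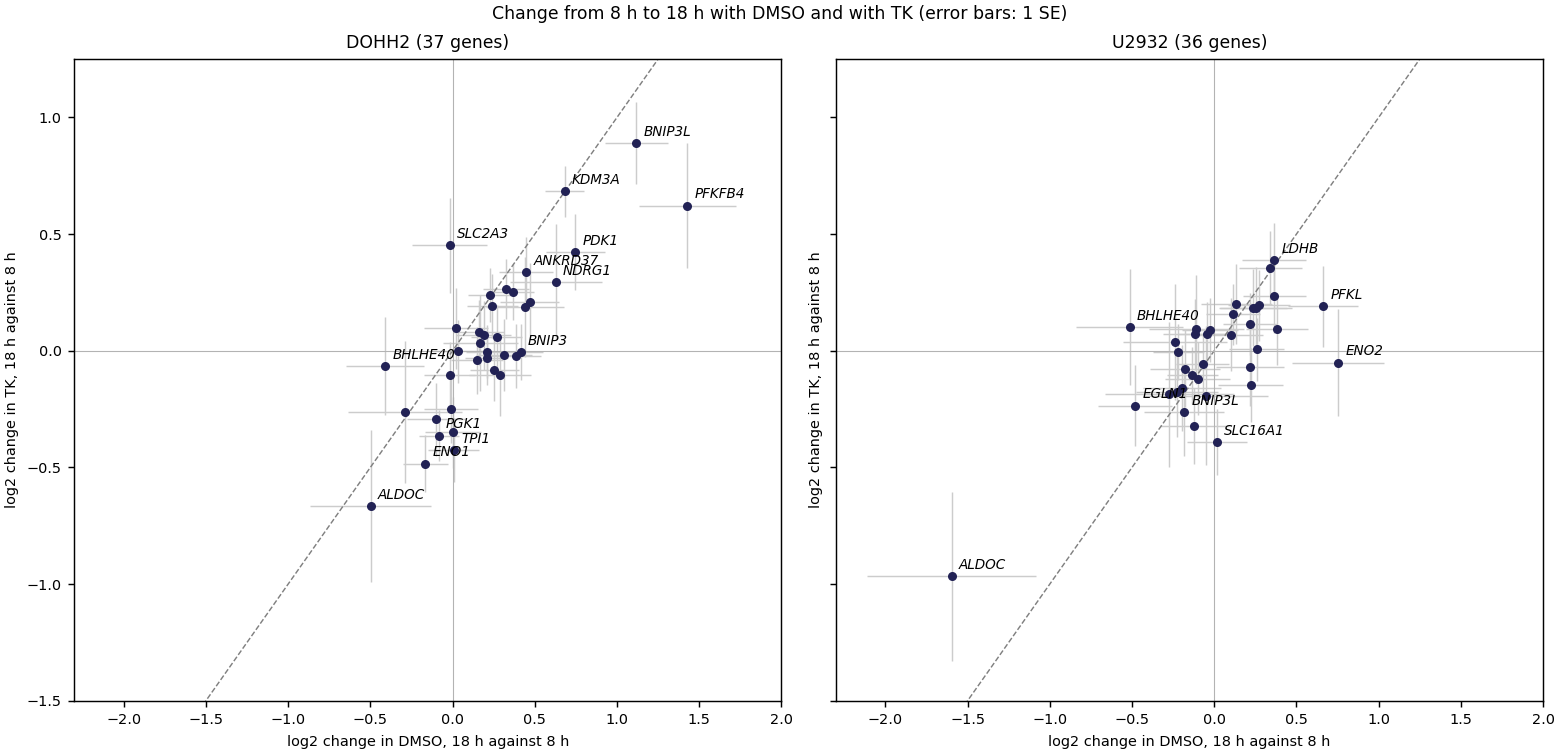
Log2 change from 8 h to 18 h with DMSO (x axis) and with TK (y axis) for each listed gene with a mean of at least 1 CPM in that line, in DOHH2 on the left and U2932 on the right, with bars of 1 SE and a dashed line where both are equal. In DOHH2, BNIP3L, KDM3A and PFKFB4 lie to the upper right, most other genes lie below the dashed line, and in U2932 BNIP3L lies below 0 on both axes.

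In U2932 with DMSO none of the 38 genes passed between 18 h and 8 h by edgeR, against 0.0364% of all genes tested, and 0 by DESeq2. At an unadjusted p under 0.05 stood 4 of 38 (10.5%), a share near the 11.4% of all genes. The late DMSO group is 1 library, assumed in the fit to vary like the other groups. KDM3A was at 50.3, 46.2 and 47.6 CPM at 8 h and 43.8 CPM at 18 h, and BNIP3L at 49.5, 41.7 and 37.7 CPM against 37.8 CPM. Neither late value lay above the early ones.

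The 5 genes with the smallest p in U2932 are given for their values, none having passed. PFKL, the liver form of phosphofructokinase, was at 54.9, 50.7 and 55.4 CPM early and 84.9 CPM late (0.66, SE 0.21, adjusted p = 0.285 by edgeR). ENO2, the neuronal enolase, was at 66.7, 64.8 and 64.6 CPM and 110 CPM (0.75, adjusted p = 0.334 by edgeR). For both enzymes the single late library lay well above the early ones. ALDOC, an aldolase, was at 22.3, 69.6 and 55.5 CPM early and 16.2 CPM late (-1.60, SE 0.51, adjusted p = 0.29 by edgeR), with an early group that itself spread widely. EGLN1, the main prolyl hydroxylase of HIF1A, was at 33.6, 31.1 and 29.6 CPM early and 22.5 CPM late (-0.48, adjusted p = 0.431 by edgeR). PGAM1, next in order of p, was at 116, 122 and 120 CPM early and 155 CPM late (0.38, adjusted p = 0.456 by edgeR).

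With TK in U2932, none of the 38 genes passed between the times by edgeR, against 0.218% of all genes tested, and 0 by DESeq2. At an unadjusted p under 0.05 stood 4 of 38 (10.5%), a smaller share than the 18.7% of all genes. They were SLC16A1 (-0.39), ALDOC (-0.97), LDHB (0.39) and TPI1 (0.36). The difference between TK and DMSO in the change over time passed for none of the 38 genes in U2932 by edgeR, against 0.00607% of all genes tested, with ENO2 alone at an unadjusted p under 0.05 (-0.81; 3.11% of all genes) and 0 by DESeq2.

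The lines were then compared in their change over time. With DMSO, none of the 38 genes passed by edgeR, against 0.0121% of all genes tested, and 2 by DESeq2 (BNIP3L and KDM3A). At an unadjusted p under 0.05 stood 5 of 38 (13.2%, against 11.0% of all genes), all more positive in DOHH2. The 5 were BNIP3L (1.30, adjusted p = 0.156 by edgeR), KDM3A (0.81), EGLN1 (0.95), PDK1 (0.94) and PFKFB4 (1.48). With TK, where U2932 has 5 libraries, 4 of 38 genes passed by edgeR, against 6.69% of all genes tested. 3 were more positive in DOHH2 (background 2.82%) and 1 more negative (background 3.87%).

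KDM3A differed by 0.79 (SE 0.16, adjusted p = 0.0167 by edgeR), with U2932 levels of 47.6 and 51.9 CPM at 8 h and 47.7, 44.2 and 46.9 CPM at 18 h. BNIP3L differed by 1.15 (SE 0.26, adjusted p = 0.0189 by edgeR), with U2932 levels of 32.9 and 43.7 CPM early and 33.1, 32.3 and 30.5 CPM late. In U2932 early and late libraries of KDM3A overlapped, while in DOHH2 they did not. TPI1, the triosephosphate isomerase, had 1691, 1268 and 1056 CPM early and 1013, 966 and 1012 CPM late in DOHH2, against 997 and 804 CPM early and 1089, 1232 and 1137 CPM late in U2932. The lines thus went opposite ways, by -0.78 (SE 0.21, adjusted p = 0.0330 by edgeR). SLC16A1, a transporter of lactate and pyruvate also called MCT1, had 32.7, 36.9 and 41.5 CPM early and 43.3, 42.5 and 47.7 CPM late in DOHH2, and 47.1 and 40.8 CPM early and 32.8, 28.2 and 39.5 CPM late in U2932. Here too every late library lay on the opposite side of the early ones in the 2 lines, with a difference of 0.65 (SE 0.19, adjusted p = 0.0451 by edgeR). The antisense gene SLC16A1-AS1 was at 0.799 to 2.29 CPM, and whether strand was used in counting is not given in the sources used here.

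These 4 differences depend on single libraries. Without U2932 TK 18 h replicate 2 or U2932 TK 8 h replicate 2 none of the 38 genes passed. SLC16A1 was lost in 8 and TPI1 in 6 of the 11 fits that left out 1 library, while KDM3A (0.72 to 0.89) and BNIP3L (0.93 to 1.34) were lost in those 2 alone.

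The compound itself was the question of the study, and against DMSO at the same time no listed gene passed in any of the 4 comparisons. At 8 h in DOHH2, 0 of 38 genes passed by edgeR, 0 at an unadjusted p under 0.05 and 0 by DESeq2, against 0% of all genes tested by edgeR and 3.02% at the unadjusted p. The smallest p belonged to NDRG1, a gene induced by stress and hypoxia, at 1.37, 1.49 and 2.16 CPM with DMSO and 2.18, 2.46 and 2.57 CPM with TK (0.52, SE 0.26, adjusted p = 1 by edgeR). ENO1 (0.20), ANKRD37 (-0.24), BNIP3L (0.28) and PGK1 (0.17) followed, each with overlapping groups. ANKRD37, a small ankyrin repeat protein, was at 8.4, 7.19 and 7.75 CPM with DMSO and 7.62, 5.4 and 6.72 CPM with TK. PGK1, which makes the first ATP of glycolysis, was at 900, 765 and 794 CPM and 942, 943 and 882 CPM.

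At 8 h in U2932, 0 of 38 genes passed by edgeR, 0 at an unadjusted p under 0.05 and 0 by DESeq2, against 0% of all genes tested by edgeR and 1.67% at the unadjusted p. The log2 changes of all 15 glycolytic enzymes were positive and small, with a median of 0.11. The 5 smallest p-values belonged to PFKM (0.19), P4HA1 (-0.22), ADM (-0.21), PFKFB4 (0.39) and PFKL (0.21). PFKM, the muscle form of phosphofructokinase, was at 109, 98.7 and 98.4 CPM with DMSO and 128 and 105 CPM with TK. PFKFB4 was at 9.21, 6.99 and 9.4 CPM with DMSO and 11.5 and 10.9 CPM with TK, and PFKL at 65.9 and 58.2 CPM with TK. P4HA1, which hydroxylates collagen, was at 17.7, 16.4 and 16.9 CPM with DMSO and 12.3 and 16.9 CPM with TK, and ADM at 59 and 61.7 CPM with TK. For P4HA1 1 TK library lay below all controls and the other inside their range, and for ADM both lay inside. TK lay above DMSO without overlap in 5 of the 38 genes, PFKFB4 and PFKL among them, and in 6.73% of all genes tested.

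At 18 h in DOHH2, 0 of 38 genes passed by edgeR, against 0.0728% of all genes tested, and 0 by DESeq2. At an unadjusted p under 0.05 stood 5 of 38 (13.2%, against 8.56% of all genes), all lower with TK. In direction the list was one-sided: 30 of 38 log2 changes were negative, among them all 15 glycolytic enzymes, with a median of -0.17 over the list and 0.02 over all genes. This comparison and the DMSO change over time share the DMSO 18 h libraries, so a high value there enters both. The 5 genes were ADM, BNIP3, PGAM1, ANKRD37 and PFKL, and in each the TK libraries all lay below the DMSO libraries. Over the list, TK lay below DMSO without overlap in 12 of 38 genes and above in 3, against 13.2% and 11.9% of all genes tested.

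ADM, which encodes the vasodilator peptide adrenomedullin, was at 3.97 and 3.28 CPM with DMSO and 2.49, 2.46 and 2.53 CPM with TK (-0.54, SE 0.19, adjusted p = 0.395 by edgeR). BNIP3 (-0.35), whose levels stand above, had an adjusted p of 0.481 by edgeR. PGAM1, the phosphoglycerate mutase of brain and blood cells, was at 343 and 311 CPM with DMSO and 262, 232 and 280 CPM with TK (-0.34). ANKRD37 was at 9.64 and 11.6 CPM with DMSO and 8.17, 8.12 and 8.6 CPM with TK (-0.36), and PFKL at 277 and 262 CPM and 260, 191 and 177 CPM (-0.37). In PFKL the library with the high share of reads not uniquely aligned was the one near the controls, and its part in the value was not tested. Without that library the list median was -0.27, and without DMSO 18 h replicate 1 it was -0.09. Leaving out replicate 1 of both TK times together gave 2 calls, PFKL and SLC16A3, both lower with TK. Weighting libraries by their quality in voom gave 14, all lower. The share of all genes called in these 2 fits is not given here, so neither count has a background.

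At 18 h in U2932, 0 of 38 genes passed by edgeR, against 0.0182% of all genes tested, and 0 by DESeq2. At an unadjusted p under 0.05 stood 3 of 38 (7.89%), a share near the 7.45% of all genes. The control is 1 library. ADM again had the smallest p, at 81.6 CPM with DMSO and 48.5, 60.9 and 54.1 CPM with TK (-0.58, SE 0.19, adjusted p = 0.503 by edgeR), although the DMSO libraries of 8 h were at 54.6, 72.6 and 82.5 CPM. ENO2 was at 110 CPM with DMSO and 55.2, 74.8 and 69.5 CPM with TK (-0.73), and the repressor BHLHE40 at 5.78 CPM and 13, 7.42 and 9.89 CPM (0.80). PGK1 was at 519 CPM with DMSO and 625, 654 and 626 CPM with TK (0.29). EGLN3, next by p, had no count with TK and 1 count in the control, both under the floor of 3 counts, so no fold is given. The TK effect was also compared between the lines: none of the 38 genes differed by edgeR at 8 h (background 0%) or at 18 h (background 0.0243%), with 0 and 0 at an unadjusted p under 0.05 (1.92% and 6.17% of all genes) and 0 and 0 by DESeq2.

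**Figure D3:**
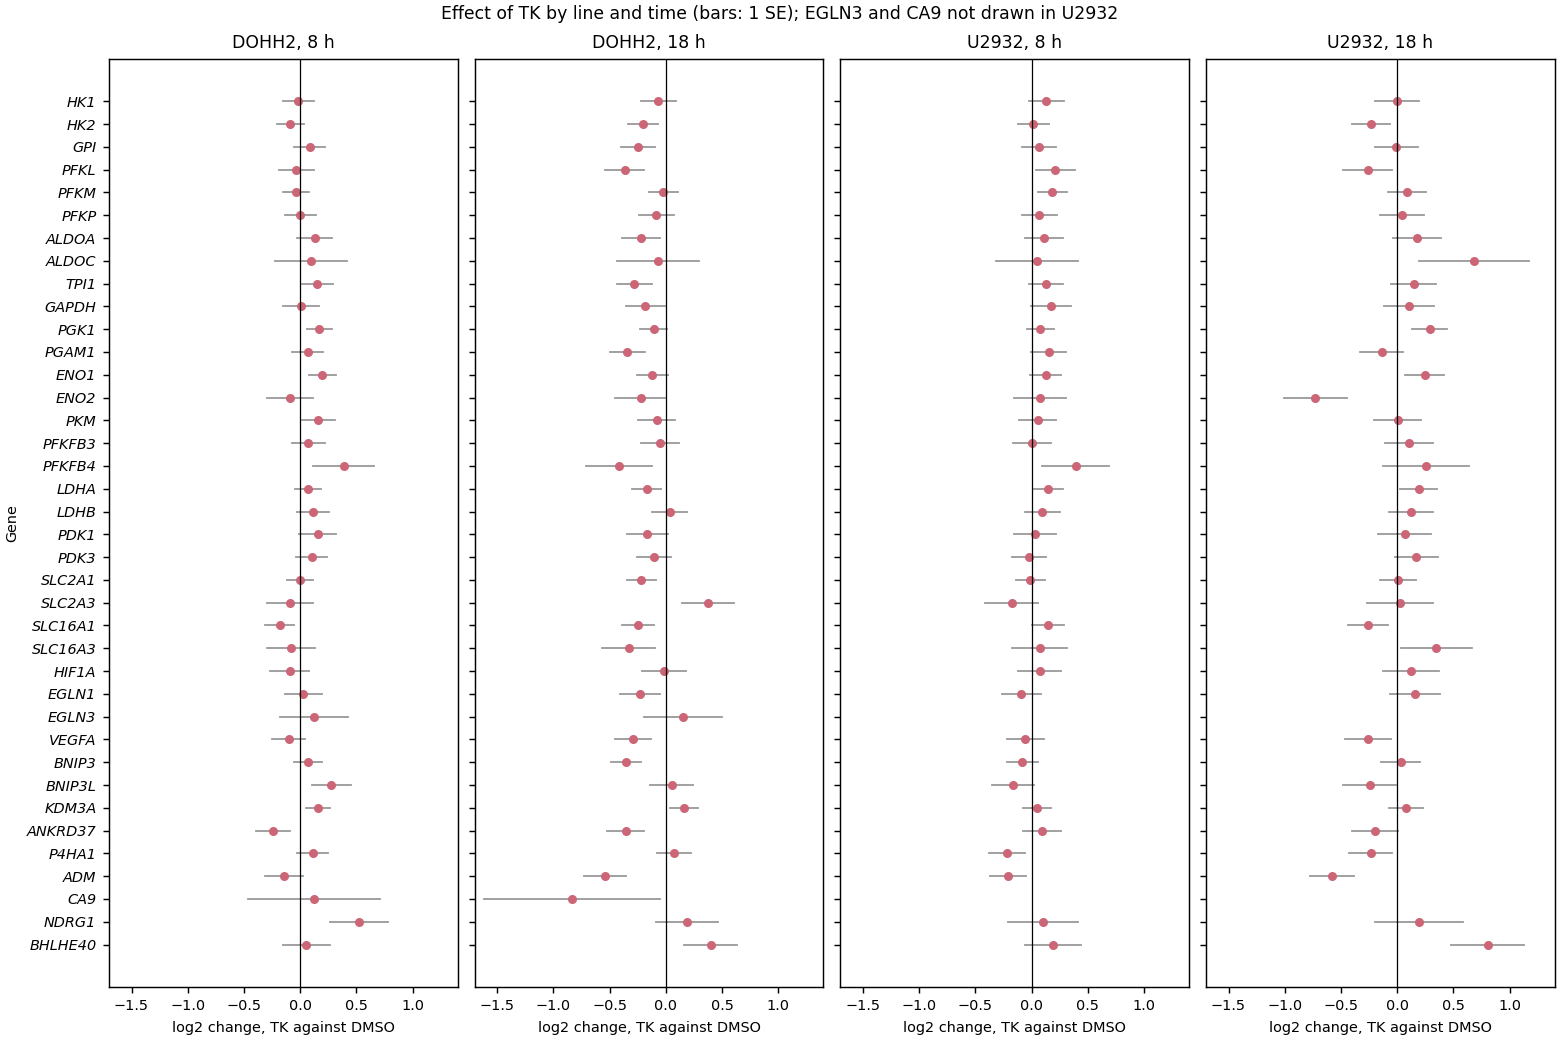
Log2 change with TK against DMSO (x axis) for each listed gene (y axis, ordered by role) in 4 panels for the 2 lines and 2 times, with points for the estimate and bars of 1 SE, and without EGLN3 and CA9 in U2932. No gene passed the threshold in any panel, and in DOHH2 at 18 h all 15 glycolytic enzymes lie left of 0.

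The lines themselves were compared next. In DMSO at 8 h, 26 of 38 genes differed between DOHH2 and U2932 by edgeR, against 67.8% of all genes tested, a share near the background. Of these, 20 were higher in DOHH2 (background 33%) and 6 lower (background 34.9%), with a median log2 difference of 0.48 over the list and -0.03 over all genes. EGLN3 and CA9, which passed the filter through DOHH2 alone, had to be higher there. Without them 18 of 36 were higher and 6 lower, with a median of 0.41. In TK at 18 h, in other libraries of the same lines, 27 of 38 differed (background 69.2%), 21 higher (background 34.2%) and 6 lower (background 34.9%), or 19 and 6 without the same pair. Of the 15 glycolytic enzymes, 11 were higher in DOHH2 in DMSO at 8 h (median 0.58) and 7 in TK at 18 h (median 0.30), and PKM alone was lower in each.

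PFKL, HK2 and HK1 had the largest differences among the enzymes in DMSO at 8 h. HK1, the hexokinase found in most tissues, was at 132, 138 and 142 CPM in DOHH2 and 39.1, 37.3 and 37.3 CPM in U2932 (1.86, SE 0.14). HK2, the hexokinase induced in many tumours, was at 148, 176 and 164 CPM and 46.6, 42.2 and 42 CPM (1.90, SE 0.12). PFKL was at 211, 214 and 226 CPM against the U2932 values given above (2.02, SE 0.16). In all 3 genes every DOHH2 library was more than 2 times as high as every U2932 library, and the adjusted p by edgeR was 5.62e-10 or less.

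The lactate exporter SLC16A3, also called MCT4 and known for its induction by hypoxia, was at 74.6, 69.1 and 80.6 CPM in DOHH2 and 14, 12.9 and 16.7 CPM in U2932 (2.36, SE 0.23, adjusted p = 1.09e-08 by edgeR). SLC16A1 was not called there (42.1, 43.9 and 40.3 CPM against 42.9, 38.3 and 38 CPM). In TK at 18 h SLC16A1 was higher in DOHH2, at 43.3, 42.5 and 47.7 CPM against 32.8, 28.2 and 39.5 CPM (0.41, adjusted p = 0.00802 by edgeR), a call lost without U2932 TK 18 h replicate 2.

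Among the other targets of hypoxia the lines were split. BHLHE40 was at 57.3, 53.3 and 44.5 CPM in DOHH2 and 8.5, 6.72 and 9.54 CPM in U2932 (2.65, SE 0.23). VEGFA, the main angiogenic factor, was at 58.5, 75.6 and 72.3 CPM and 17.7, 20.6 and 24.3 CPM (1.72, SE 0.15). P4HA1 was at 58.4, 60.9 and 58.7 CPM and 17.7, 16.4 and 16.9 CPM (1.80, SE 0.14). These 3 were higher in every DOHH2 library, with an adjusted p of 2.12e-09 or less by edgeR.

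ADM went the other way and furthest, at 3.26, 2.43 and 3.24 CPM in DOHH2 and 54.6, 72.6 and 82.5 CPM in U2932 (-4.56, SE 0.17, adjusted p = 3.81e-15 by edgeR). BNIP3L was lower in DOHH2 as well (-2.06, SE 0.18), and so was EGLN1, at 7.16, 9.51 and 9.04 CPM against 33.6, 31.1 and 29.6 CPM (-1.87, SE 0.16). Which line had the higher level thus differed from target to target. Smaller differences in DMSO at 8 h that passed included PGAM1 (1.07), PFKM (0.73), GAPDH (0.58) and PDK1 (0.58), higher in DOHH2, and PDK3 (-0.89), another kinase of pyruvate dehydrogenase, lower.

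In TK at 18 h the differences were -4.45 for ADM, 2.36 for SLC16A3 and 2.04 for HK2. Of the enzymes called in DMSO at 8 h, GPI (0.30), PFKP (0.29), PGK1 (0.17), GAPDH (-0.06) and TPI1 (-0.21), were not called there. BNIP3L stood at -0.46 (SE 0.17) there, and without U2932 TK 18 h replicate 1 or DOHH2 TK 18 h replicate 1 it was not called. KDM3A was lower in DOHH2 in DMSO at 8 h (-0.62, SE 0.11) and higher in TK at 18 h (0.28, SE 0.11, adjusted p = 0.0307 by edgeR), the latter lost without any of 3 libraries (DOHH2 TK 18 h replicate 3, U2932 TK 18 h replicates 2 and 3) and under RLE scaling (0.23).

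EGLN3 and CA9 had nearly all their counts in DOHH2. EGLN3, a prolyl hydroxylase that is itself a sensitive HIF target, had 151 counts over the 3 DOHH2 libraries in DMSO at 8 h and 1 count over the 3 of U2932, a ratio of CPM of 141 with an exact 95% counting interval of 24.9 to 5606. In TK at 18 h it had 142 counts and 0, at least 44.2-fold higher in DOHH2 when 3 counts over the group are taken as the floor. CA9, a carbonic anhydrase of the cell surface and a classical hypoxia marker, had 45 counts and 0, at least 14.0-fold higher. In TK at 18 h it had 16 counts and 1, a ratio of 14.9 (2.32 to 626). Even in DOHH2 both were scarce, at 0.919 to 1.76 CPM for EGLN3 and 0.0579 to 0.657 CPM for CA9. Intervals and floors cover counting error only.

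**Figure D4:**
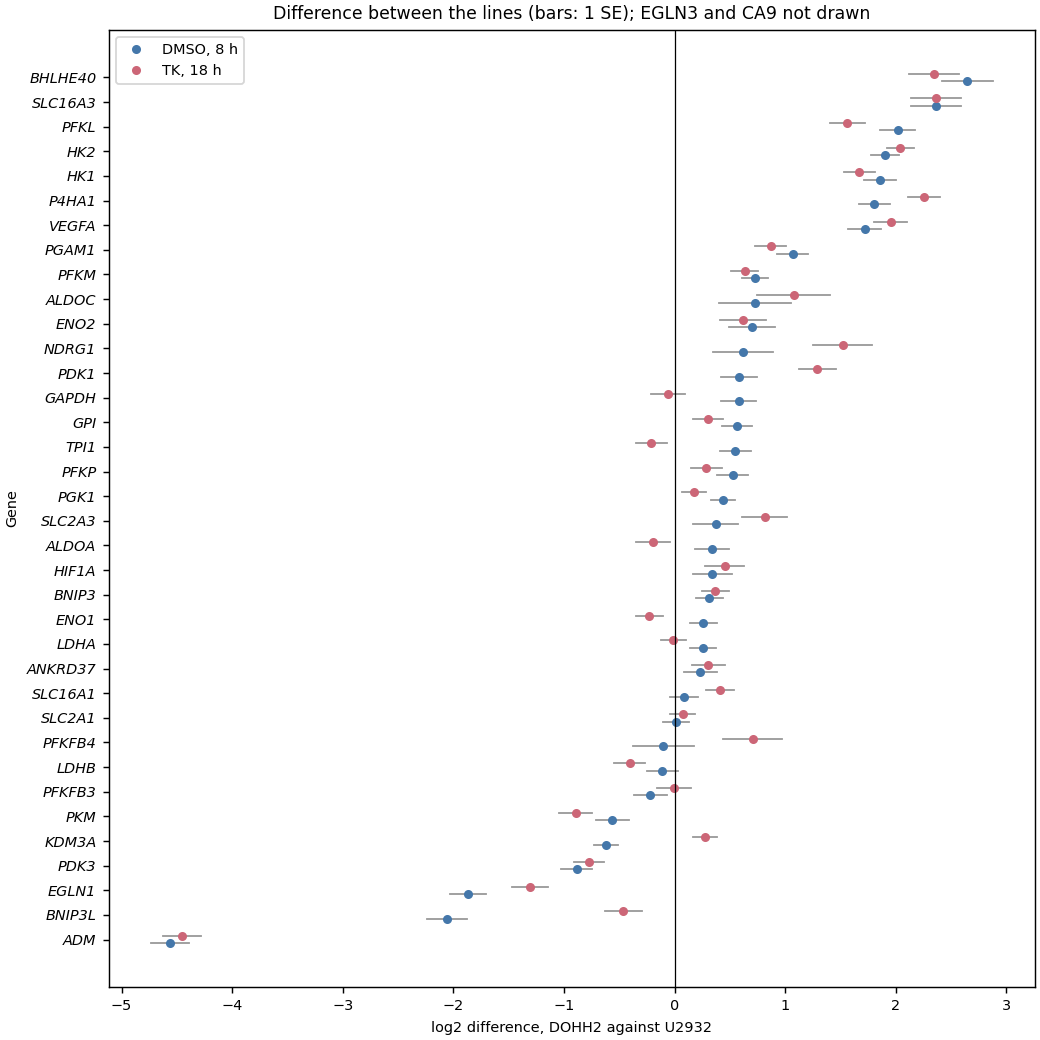
Log2 difference between DOHH2 and U2932 (x axis) for each listed gene except EGLN3 and CA9 (y axis, ordered by the value in DMSO at 8 h), in DMSO at 8 h in blue and in TK at 18 h in red, with bars of 1 SE. BHLHE40, SLC16A3, PFKL, HK2 and HK1 lie furthest right, ADM, BNIP3L and EGLN1 furthest left, and BNIP3L and KDM3A shift to the right between the 2 conditions.

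Levels of different genes are comparable only per length, here as CPM per kilobase of the principal GENCODE v29 transcript. GAPDH, the enzyme that reduces NAD on the glycolytic path, was the most abundant of the list in both lines, with a mean of 3602 CPM per kb in DOHH2 (2862 to 4891, n = 11) and 2929 in U2932 (2501 to 3434, n = 9). ENO1 came next, at 1669 CPM per kb (1364 to 2332) and 1533 (1314 to 1714), its range overlapping those of ALDOA and TPI1 in DOHH2 and that of PKM in U2932. In DOHH2 the next were ALDOA (1009), TPI1 (963), LDHB (866), PKM (817) and LDHA (759), with overlapping ranges. In U2932 PKM followed at 1298 CPM per kb (1080 to 1501), and then LDHB (1020). PKM, the pyruvate kinase of proliferating cells, was the enzyme lower in DOHH2 (-0.56 in DMSO at 8 h and -0.90 in TK at 18 h, both past the threshold). At the other end, EGLN1, NDRG1, EGLN3 and CA9 had means of 1.36, 0.794, 0.476 and 0.188 CPM per kb in DOHH2.

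The listed isoforms within a family were then set against each other, as shares of their summed CPM per kb. Members of a family outside the 38 genes were left out, among them PDK2 and SLC16A7. PFKL had a median of 33.9% of phosphofructokinase in DOHH2 (30.0 to 38.1%, n = 11) and 17.4% in U2932 (15.7 to 21.8%, n = 9), and the platelet form PFKP had 38.7% (36.8 to 44.9%) and 52.2% (50.7 to 59.0%). For both isoforms the ranges of the lines were separate. For the hexokinases they were not: HK1 had 56.6% (53.4 to 63.0%) and 60.0% (57.3 to 65.7%), although both genes were higher in DOHH2. Which hexokinase leads depends on the length used: in plain CPM the HK1 medians were 44.9% and 48.4%.

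SLC16A3 had 58.9% of the 2 listed lactate transporters in DOHH2 (51.8 to 69.4%) and 23.4% in U2932 (19.9 to 29.6%). BNIP3 had 78.0% of the BNIP3 pair in DOHH2 (64.4 to 83.8%) and 49.8% in U2932 (41.6 to 56.7%). Within DOHH2 the BNIP3 share with DMSO was 81.4% ± 2.42 (SD, n = 3) at 8 h and 73.0% ± 2.54 (SD, n = 2) at 18 h. With TK it was 79.0% ± 0.87 (SD, n = 3) at 8 h and 66.8% ± 3.08 (SD, n = 3) at 18 h. Early and late libraries were separate under both treatments. BNIP3 has many processed pseudogenes, which held 1.70 to 9.81% of the counts of BNIP3 and these pseudogenes together, so reads could be split between them.

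LDHA, the lactate dehydrogenase that favours lactate, had 47.1% of the pair in DOHH2 (43.0 to 49.2%) and 39.9% in U2932 (37.1 to 43.6%), ranges that overlapped, the rest being LDHB. Which of the pair leads depends on the length used: in plain CPM the LDHA medians were 62.3% and 55.2%. Shares of the pair PDK1 and PDK3 depended on length likewise, PDK1 having 23.7% per kb and 69.7% in plain CPM in DOHH2. Under either measure the PDK1 range was higher in DOHH2 than in U2932 (17.3 to 31.6% against 7.74 to 10.6% per kb).

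**Figure D5:**
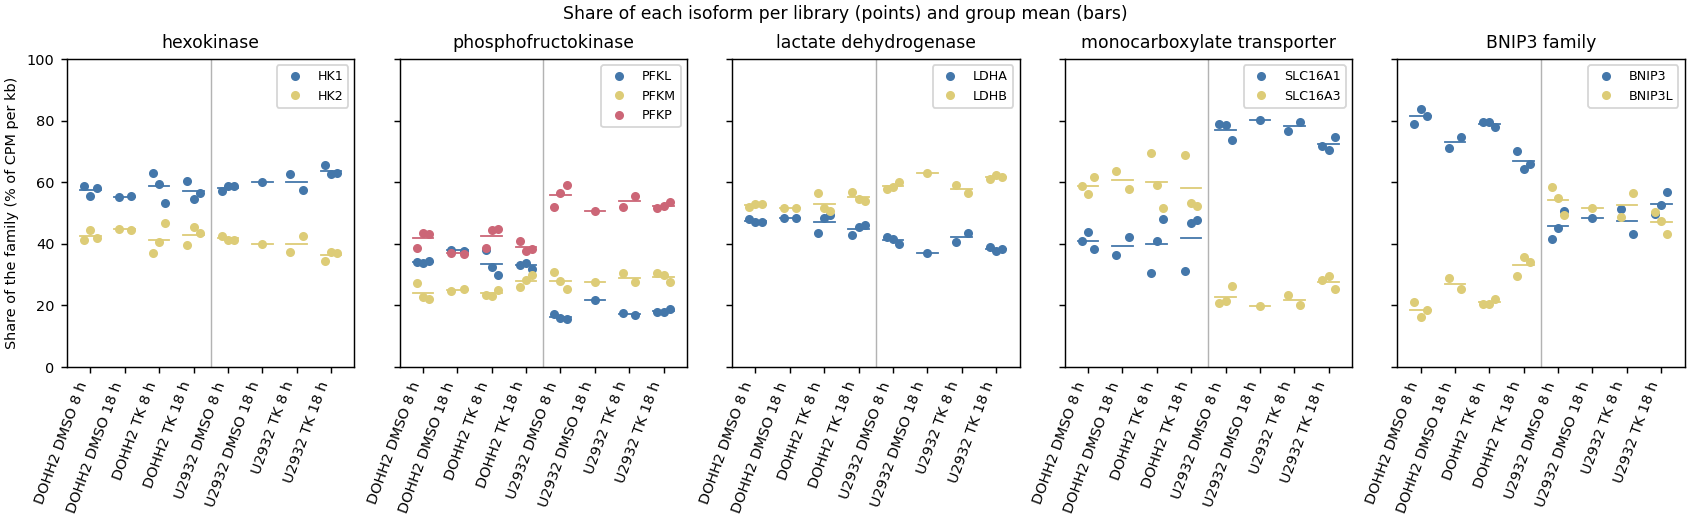
Share of each isoform among the listed members of its family (y axis, percent of their summed CPM per kb). Groups of 5 families are on the x axis, with a point per library and bars at group means. PFKL and SLC16A3 take larger shares in DOHH2 than in U2932, and the BNIP3 share is lower at 18 h than at 8 h in DOHH2 under both treatments.

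The other members passed in no comparison within a line, which at 1 to 3 libraries a group does not show that they were stable. HIF1A, the oxygen-labile subunit of the factor, was at 71.3 to 112 CPM in DOHH2 and 54.2 to 88 CPM in U2932 and passed in no comparison within a line. The glucose importers SLC2A1 (69.2 to 93.8 CPM in DOHH2, 70.4 to 81.7 CPM in U2932) and SLC2A3 (4.83 to 11.9 and 4.53 to 5.98 CPM), the enzymes GPI, PFKM, PFKP, ALDOA, ALDOC, GAPDH, PGK1, PGAM1, ENO2, PKM and HK1, and LDHA, LDHB, PDK3, PFKFB3, VEGFA, P4HA1 and BHLHE40 likewise passed in none. Of the 38 genes, KDM3A, BNIP3L, PFKFB4 and ENO1 alone passed in a comparison within a line.

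A wider list of 87 other genes of glucose metabolism and the hypoxia response, of which 68 were tested, was tested in the same comparisons. Against DMSO none of the 68 passed with TK in either line at either time by edgeR. In DOHH2, 1 of them had an unadjusted p under 0.05 at 8 h (1.47%, against 3.02% of all genes) and 8 at 18 h (11.8%, against 8.56%). In U2932 the counts were 0 (against 1.67%) and 6 (8.82%, against 7.45%). DESeq2 called 1 of the 68 in DOHH2 at 18 h and 0 in the other 3 comparisons. The nearest was TIGAR, a phosphatase of fructose bisphosphates controlled by p53, in DOHH2 at 18 h (0.65, adjusted p = 0.139 by edgeR). Over time in DOHH2, 1 of 68 passed with DMSO and 2 with TK by edgeR, all higher. Of all genes tested, 0.631% and 1.57% passed there. DESeq2 called 3 and 4 of the 68, and the share of all genes called by DESeq2 is not given here. Between the lines in DMSO at 8 h, 29 of the 68 were higher in DOHH2 and 20 lower, against 33% and 34.9% of all genes tested.

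CITED2, which competes with HIF1A for its coactivator, was at 35.0, 35.8 and 44.0 CPM early and 67.5 and 56.6 CPM late with DMSO (0.70, SE 0.15, adjusted p = 0.0362 by edgeR), and at 28.5, 33.1 and 36.2 CPM early and 47.6, 49.8 and 47.8 CPM late with TK (0.57, SE 0.14, adjusted p = 0.0427 by edgeR). MXI1, a MYC antagonist and HIF target, rose with TK from 16.1, 15.3 and 19.0 CPM to 30.6, 26.1 and 26.6 CPM (0.72, SE 0.14, adjusted p = 0.0128 by edgeR). With DMSO its 2 late libraries were at 27.6 and 27.0 CPM against 16.6 to 20.6 CPM (0.60, adjusted p = 0.0834 by edgeR). CITED2 lost its call in 4 of 5 fits that left out 1 library with DMSO (0.56 to 0.82) and in 5 of 6 with TK (0.48 to 0.65). MXI1 lost it without TK 8 h replicate 1 or 2 (0.65 to 0.82).

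In U2932, HIF1AN, the asparaginyl hydroxylase that blocks HIF1A from its coactivators, fell with TK by 0.59 (SE 0.11, adjusted p = 0.0225 by edgeR), from 52.0 and 55.6 CPM to 34.3, 36.8 and 36.0 CPM. In DMSO it was at 57.4, 59.8 and 56.1 CPM early and 46.9 CPM late, above all late TK libraries. By edgeR it was the only one of the 68 genes to pass over time with TK in U2932, against 0.218% of all genes tested (3 by DESeq2). It was also the only one whose TK change over time differed between the lines (0.69, SE 0.15, adjusted p = 0.0171 by edgeR). In that comparison 6.69% of all genes tested passed by edgeR, and DESeq2 called 9 of the 68. DOHH2 libraries held it between 67.4 and 80.1 CPM. The U2932 fall was lost in 4 of 5 fits that left out 1 library (-0.64 to -0.54), and the difference between the lines without U2932 TK 8 h replicate 2 alone (0.63 to 0.73).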

How the data were processed

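Gene counts were deposited per library as whole numbers. Per the submitters' processing notes they were made with STAR and HTSeq on GRCh38.p10, and edgeR is also listed, with versions not given; the labels' protocols name polyadenylated RNA. No source states the strand setting, and overlapping and antisense genes may share reads. 5 summary rows of each file were left out of library sizes. The 20 libraries entered 1 edgeR 4.0.16 quasi-likelihood fit (R 4.3.3, TMM scaling, 8 group means), with genes kept at 10 counts or more, scaled to the median library (0.288 CPM), in 3 libraries, and p-values adjusted by Benjamini-Hochberg over all 16478. DESeq2 1.42.0, limma 3.58.1 voom, other filters and scalings, a replicate block and leaving out libraries were alternatives. Genes given in full were those called within a line, the 5 with the smallest p in each TK and each DMSO time comparison and the 12 with the largest line difference, with others added after their values were seen. The members and lists were chosen with earlier results of these data known. The fit was tested on simulated data. Counting intervals cover counting error only, since reads carry no molecular identifiers.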

Additional observations from a re-analysis of the deposited data

Results flagged for a closer look

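In 4 of the 38 genes the change from 8 to 18 h with TK differed between DOHH2 and U2932, against 6.69% of all genes tested. The test was edgeR's quasi-likelihood test of that difference, with Benjamini-Hochberg adjustment. As given above, these 4 calls depended on single libraries. KDM3A differed by 0.79 (adjusted p = 0.0167) and BNIP3L by 1.15 (adjusted p = 0.0189), both rising in DOHH2. SLC16A1 differed by 0.65 (adjusted p = 0.0451), and TPI1 by -0.78 (adjusted p = 0.0330).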

How the results depend on the processing

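The number of the 38 genes called was recomputed under each alternative. Of the recomputed counts, 191 stayed within 1.5 times the value reported and 32 did not, and no called gene changed sign. The 191 include counts of 0 that stayed at 0. Median isoform shares were recomputed in plain CPM and with another length. Of these, 24 stayed within the SD between libraries of a group and 68 did not. Without a filter, 1 gene was called for TK against DMSO in U2932 at 18 h, 3 over time with DMSO in U2932, 6 over time with TK in DOHH2, 1 with TK in U2932, and 3 for the DMSO time difference between the lines. DESeq2 gave 5 over time with TK in DOHH2 and 2 for the DMSO time difference. Weighting libraries by quality in voom gave 14 for the late TK effect in DOHH2, 1 for that in U2932, 13 and 5 over time with DMSO in DOHH2 and U2932, 12 and 2 with TK, and 5 and 11 for the DMSO and TK time differences. Fits of 1 line alone gave 1 over time with DMSO in DOHH2, 0 with TK in DOHH2 and 2 with DMSO in U2932. Without DOHH2 TK replicate 1 of both times, 2 were called for TK against DMSO in DOHH2 at 18 h. The cause was not tested. The share of all genes called under each alternative is not given here, so these counts have no background to be read against.

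Leaving out 1 library at a time gave 0 to 4 over time with DMSO in DOHH2, 1 to 7 with TK, 0 to 7 for the TK time difference, and 24 to 28 and 21 to 28 between the lines in DMSO at 8 h and TK at 18 h. Libraries with the same replicate number correlated above 0.1 in 8 of 15 pairs in DOHH2 and 4 of 7 in U2932. Those with different numbers did so in 8 of 30 and 4 of 14. The median correlations in DOHH2 and U2932 were 0.104 and 0.152 for the same number, and -0.021 and -0.020 for different numbers. Whether the numbers pair the samples was not settled by this, and the main fit treated the libraries as unpaired. With a replicate block, 3 genes were called over time with DMSO in DOHH2, 2 with TK (ENO1 was lost), 4 for the TK time difference and 27 in each comparison between the lines. RLE scaling moved the median of all genes by -0.047 to 0.017 on the log2 scale. At these group sizes, of 1 to 3 libraries, small changes were not detectable.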

Other observations

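In DOHH2, replicate 1 held the highest level of most glycolytic enzymes in every group. It was the highest library for 10 of the 15 enzymes in DMSO at 8 h, for 12 in TK at 8 h and for 12 in TK at 18 h. In DMSO at 18 h, where there are 2 libraries, it was the highest for 15. In U2932, replicate 1 was the highest for 4 of 15 in DMSO at 8 h, for 10 of 15 in TK at 8 h, where there are 2 libraries, and for 1 of 15 in TK at 18 h. This was noticed in the data and was given no test. How often replicate 1 was the highest over all genes was not counted.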
